A study of Homo sapiens with 6 samples.

Results

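The 8 genes described here, TCP1, CCT2, CCT3, CCT4, CCT5, CCT6A, CCT7 and CCT8, encode the ubiquitous subunits of CCT (also called TRiC), the chaperonin of the cytosol. Membership is set by gene symbol alone, but the family was picked for description with earlier results of these data known. The 8 genes make up 8 of the 58051 genes in the count table. Messenger RNA was selected by its poly(A) tail and sequenced in cultured HEK293T cells, which derive from embryonic kidney and contain the T-antigen of SV40. One group of 3 libraries came from cells given the empty plasmid pcDNA3.1-, and the other 3 came from cells given pcDNA3.1-ppk1, which expresses ppk1, a bacterial polyphosphate kinase gene. All cells were transfected transiently with a Lipofectamine reagent, kept in OptiMEM and harvested after 48 h, so each library mixes cells that did and did not take up the plasmid. The libraries carry the letters B, C and D in both groups, and the series' design text pairs the 2 libraries of a letter as matched biological replicates. The series' title speaks of a response to long-chain polyphosphate within human cells, and the comparison asks which transcripts differ when the kinase is expressed.

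CCT is built from a pair of stacked rings, each made of one copy of every subunit, and closes over newly made proteins in a cycle driven by ATP. Actin and tubulin depend on it to fold, as do many proteins with WD40 propellers, and prefoldin and phosducin-like proteins pass substrates to it or bind it while it works. Because the ring holds each subunit in the same number, the transcript levels of the 8 genes can be read against each other as well as one by one.

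Library totals ran from 40851783 to 67122986 counts, and each subunit had between 17207 and 53387 counts in every library, so counting error is small beside the spread between libraries. The transgene's own RNA was not analysed here. Among markers of HEK293 cells, VIM averaged 509 CPM (counts divided by the scaled library total and multiplied by 1000000) in the empty vector libraries, NEFM 158, NEFL 78.1 and KRT18 43.8, while PAX2 and LHX1 were low, at 3.00 and 4.25 CPM. Of these 6 markers, KRT18 was called higher with ppk1 and NEFL lower (edgeR adjusted p 0.0113 and 0.00793). Of 5 markers of other cell types, PTPRC, PECAM1 and CD3E had at most 9 counts in any library, ALB had 9 to 34 and COL1A1 628 to 1284. ALB was called lower with ppk1 (edgeR adjusted p 0.00261). The part of these marker shifts in the values below was not tested.

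Promoter windows from 250 bases before to 50 bases after the start site were found for 7 of the 8 genes in RefSeq's table (build GRCh38.p14), as 9 windows, with CCT6A not in that table. The following are shown because they hold a match to the paired units of a heat shock element, the sequence bound by heat shock factors, or belong to the subunits with the largest and the smallest difference between the groups (CCT3 and CCT8). All are written 5′ to 3′ on the gene's strand, and capitals mark every match to GAANNTTC or TTCNNGAA, the paired units in either order, and to the CCAAT box, which is searched as CCAAT on both strands and so also reads ATTGG.
TCP1, chr6:159789553-159789852, minus strand: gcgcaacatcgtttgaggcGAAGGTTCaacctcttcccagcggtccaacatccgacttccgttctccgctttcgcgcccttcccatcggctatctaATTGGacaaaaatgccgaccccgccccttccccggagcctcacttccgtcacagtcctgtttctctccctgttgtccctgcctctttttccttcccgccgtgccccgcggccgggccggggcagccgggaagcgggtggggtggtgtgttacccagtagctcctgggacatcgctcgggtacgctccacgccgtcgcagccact
CCT2, chr12:69585639-69585938, plus strand: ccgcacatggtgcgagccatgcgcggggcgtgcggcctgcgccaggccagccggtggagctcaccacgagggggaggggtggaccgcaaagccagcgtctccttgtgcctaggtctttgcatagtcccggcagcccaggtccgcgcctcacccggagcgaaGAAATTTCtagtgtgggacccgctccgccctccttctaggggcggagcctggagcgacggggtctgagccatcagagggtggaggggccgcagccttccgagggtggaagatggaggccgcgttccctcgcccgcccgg
CCT4, chr2:61888607-61888906, minus strand: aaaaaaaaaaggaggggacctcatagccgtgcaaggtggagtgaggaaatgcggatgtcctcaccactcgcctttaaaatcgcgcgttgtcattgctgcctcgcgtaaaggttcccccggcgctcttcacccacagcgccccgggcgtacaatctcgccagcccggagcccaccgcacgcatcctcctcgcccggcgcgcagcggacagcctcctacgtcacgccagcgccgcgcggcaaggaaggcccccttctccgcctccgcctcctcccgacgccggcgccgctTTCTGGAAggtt
CCT3, chr1:156338243-156338542, minus strand: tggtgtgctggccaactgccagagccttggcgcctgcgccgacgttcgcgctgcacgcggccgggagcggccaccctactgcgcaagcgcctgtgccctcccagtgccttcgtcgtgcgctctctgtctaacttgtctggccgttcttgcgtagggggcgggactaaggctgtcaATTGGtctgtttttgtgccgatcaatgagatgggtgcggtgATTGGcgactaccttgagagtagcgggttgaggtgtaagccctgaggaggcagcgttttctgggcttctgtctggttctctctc
CCT8, chr21:29073599-29073898, minus strand: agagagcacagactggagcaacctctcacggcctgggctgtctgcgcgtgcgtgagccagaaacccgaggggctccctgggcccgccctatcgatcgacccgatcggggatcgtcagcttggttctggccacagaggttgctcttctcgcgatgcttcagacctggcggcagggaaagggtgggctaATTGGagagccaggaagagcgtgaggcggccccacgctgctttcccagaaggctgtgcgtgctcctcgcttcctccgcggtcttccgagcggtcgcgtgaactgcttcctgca

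GAANNTTC was found in 2 of the 9 windows (TCP1 and CCT2) and in 6.77% of all 35116 windows of the table, and TTCNNGAA in 1 (CCT4) and in 7.74%. The CCAAT box was found in 4 windows, 1 each of TCP1, CCT2 (the window of its other start site, not shown), CCT3 and CCT8, and in 34.6% of all windows. The GC box (GGGCGG, both strands) was found in 6 windows of 5 genes and in 45% of all windows. ACTACA, the start of the site of ZNF143, a zinc finger factor reported to act on CCT promoters, was found in 0 of the 9 and in 8.46% of all windows. The rest of that site was not searched without this start, so sites that lack it would have been missed. The TATA box (TATAAA) and the E-box (CACGTG) were also found in 0 of the 9, against 11.5% and 7.26% of all windows. These are matches of letters in a fixed window and were not tested as binding sites.

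All 8 subunits had a positive log2 fold change with ppk1, and 0 of the 8 passed the test. The differences ran from 3.20% for CCT8 to 15.2% for CCT3, with a median log2 fold change of 0.13. In edgeR's quasi-likelihood test with the letter as a block, 9.08% of the 19574 genes tested had a Benjamini-Hochberg adjusted p below 0.05, with 4.04% called higher and 5.04% lower. At an unadjusted p below 0.05 there were 3 subunits, CCT3, CCT7 and CCT6A, all higher with ppk1, where 12.2% of all genes tested were higher at that threshold. DESeq2 with the same block also called 0 of the 8, where it called 4.40% of the 17167 genes with an adjusted p. In DESeq2 3 subunits had an unadjusted p below 0.05, for which no share of all genes is given here. Over all genes tested the median was 0.01. Without the replicate block 0 of the 8 were called, where 2.40% of all genes were. In that fit 2 had an unadjusted p below 0.05, again with no share of all genes given. With no such share, these counts from DESeq2 and from the fit without the block are not read as a result about the subunits.

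CCT3 (ENSG00000163468, chromosome 1), the gamma subunit, had the largest difference of the 8. It was measured at 691, 715 and 781 CPM in the empty vector libraries B, C and D, and at 799, 878 and 841 CPM in the ppk1 libraries. Every ppk1 library lay above every empty vector library, and the level was higher with ppk1 within each pair. The group means were 729 ± 46.6 and 839 ± 39.5 CPM (SD, n = 3 libraries per group), with a log2 fold change of 0.20 (SE 0.08, adjusted p 0.0834 in edgeR). Under the 12 alternative settings its adjusted p ran from 0.0278 to 0.707 in edgeR or DESeq2. It passed in 3 of them, namely with no filter on low counts, with offsets for GC content and length, and without replicate D (0.0452, 0.0278 and 0.0409).

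CCT7 (ENSG00000135624, chromosome 2), the eta subunit, had 526, 536 and 560 CPM in the empty vector libraries and 576, 659 and 595 CPM in the ppk1 libraries B, C and D. Its groups did not overlap either, and the ppk1 library of pair C stood highest. The log2 fold change was 0.17 (SE 0.08, adjusted p 0.148 in edgeR).

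TCP1 (ENSG00000120438, chromosome 6), the alpha subunit, whose name became that of the whole family, had 542, 560 and 586 CPM with the empty vector and 602, 666 and 595 CPM with ppk1. The groups were apart, but the highest empty vector library and the lowest ppk1 library, both of pair D, differed by less than 10 CPM. The log2 fold change was 0.14 (SE 0.08, adjusted p 0.254 in edgeR). TCP1 overlaps ACAT2 on the opposite strand at its end, and ACAT2, a gene of acetyl-CoA metabolism, rose from 81.5 to 107 CPM (edgeR adjusted p 0.00045). Whether the counting used the strand is not given in the sources used here, and the part of ACAT2 reads in the TCP1 value was not tested.

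CCT4 (ENSG00000115484, chromosome 2), the delta subunit, had 540, 533 and 576 CPM in the empty vector libraries and 585, 619 and 590 CPM in the ppk1 libraries. It was the steadiest ppk1 value of the 8, with a coefficient of variation of 3.04%, and its groups did not overlap. The log2 fold change was 0.12 (SE 0.08, adjusted p 0.336 in edgeR). In this way 4 of the 8 subunits had all ppk1 libraries above all empty vector libraries, against 13.0% of all genes tested. This holds on the scaled library totals. On raw library totals TCP1 overlapped through pair D, at 24865 of 42666552 counts with ppk1 against 23932 of 40851783 with the empty vector.

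The other 4 subunits overlapped between groups, in each case through empty vector library D. CCT6A (ENSG00000146731, chromosome 7), the zeta subunit, had 419, 451 and 528 CPM with the empty vector and 500, 539 and 521 CPM with ppk1, at a log2 fold change of 0.16 (SE 0.08, adjusted p 0.177 in edgeR). On the log2 scale it differed by 0.25 in pair B, the most of the 8, by 0.26 in pair C and by -0.02 in pair D. Without replicate D it passed the edgeR test (log2 fold change 0.23, adjusted p 0.0309), and with offsets for GC content and length too (0.20, adjusted p 0.0152).

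CCT5 (ENSG00000150753, chromosome 5), the epsilon subunit, had 439, 453 and 509 CPM with the empty vector and 482, 524 and 506 CPM with ppk1. Pair D was level for this gene, and the other 2 pairs were higher with ppk1. The log2 fold change was 0.11 (SE 0.08, adjusted p 0.391 in edgeR).

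CCT2 (ENSG00000166226, chromosome 12), the beta subunit, had 348, 388 and 489 CPM in the empty vector libraries and 402, 429 and 444 CPM in the ppk1 libraries. Its highest value of all 6 was empty vector D. The log2 fold change was 0.07 (SE 0.08, adjusted p 0.616 in edgeR), with a 95% interval from -0.08 to 0.23.

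CCT8 (ENSG00000156261, chromosome 21), the theta subunit, had 435, 463 and 604 CPM with the empty vector and 500, 496 and 540 CPM with ppk1, and again empty vector D was the highest of the 6. The log2 fold change was 0.05 (SE 0.08, adjusted p 0.775 in edgeR), with a 95% interval from -0.11 to 0.20. It is the 1 subunit whose sign turned under an alternative, to -0.03 (edgeR adjusted p 0.882) without replicate B. The interval that reached highest was that of CCT3, from 0.05 to 0.36.

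**Figure D1:**
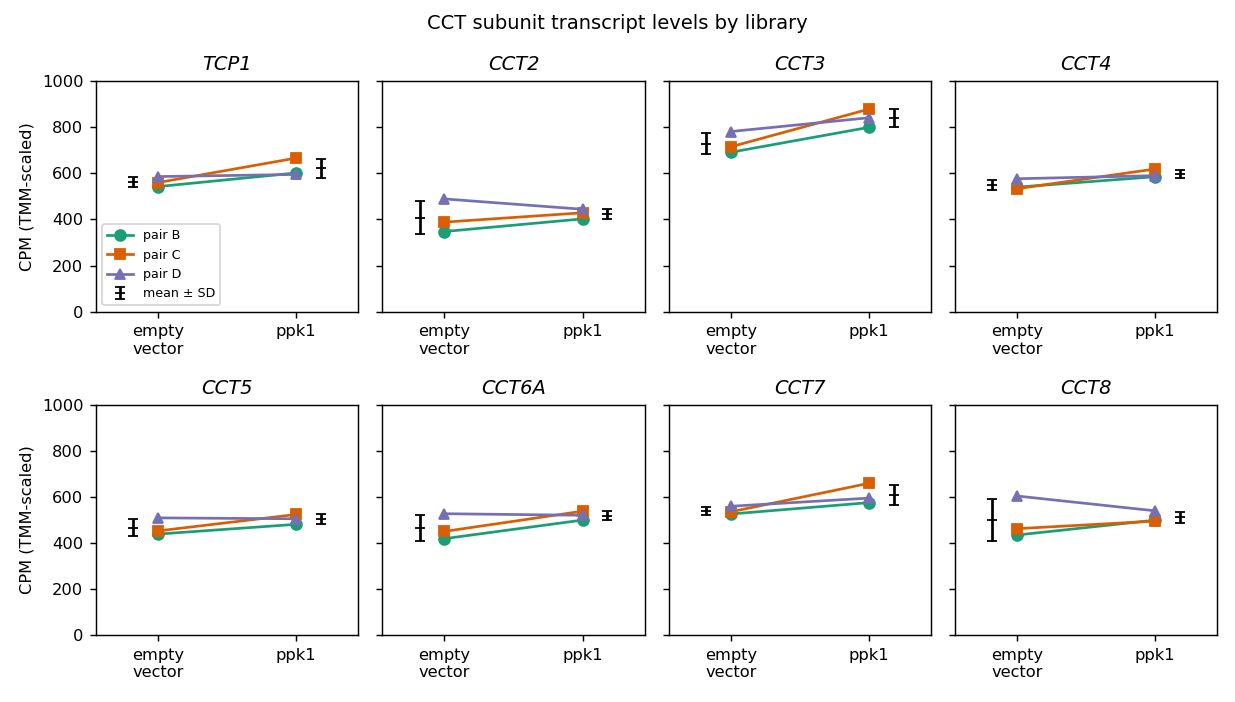
Level of each CCT subunit in the 6 libraries, in CPM on TMM-scaled totals (linear axis from 0), with lines joining the 2 libraries of a letter and black bars showing the mean ± SD of the 3 libraries of a group. In pairs B and C the ppk1 library is the higher in all 8 panels, while empty vector D is high for CCT2 (489 CPM) and CCT8 (604 CPM).

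The pairs did not move alike. On TMM-scaled totals, the 8 differences of pair B ran from 0.12 (CCT4) to 0.25 (CCT6A) on the log2 scale. In pair C they ran from 0.10 (CCT8) to 0.30 (CCT7), so all 8 subunits were higher with ppk1 in both. In pair D they ran from -0.16 (CCT8) to 0.11 (CCT3), with 4 above and 4 below 0. The 4 below were CCT8, CCT2, CCT6A and CCT5, and the 4 higher in all 3 pairs were CCT3, CCT7, CCT4 and TCP1. On raw library totals CCT8 turned lower with ppk1 in pair C, at 23752 of 50243766 counts against 20503 of 42903078 with the empty vector. TCP1 turned lower in pair D (24865 of 42666552 against 23932 of 40851783). Of all genes tested, 22.6% were higher with ppk1 in all 3 pairs. The 8 subunits had a median of 0.17 in pair B, 0.23 in C and 0.01 in D, and all genes tested had 0.01, 0.02 and -0.001. Each pair is 1 library against 1, so a difference between the pairs has no test here.

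**Figure D2:**
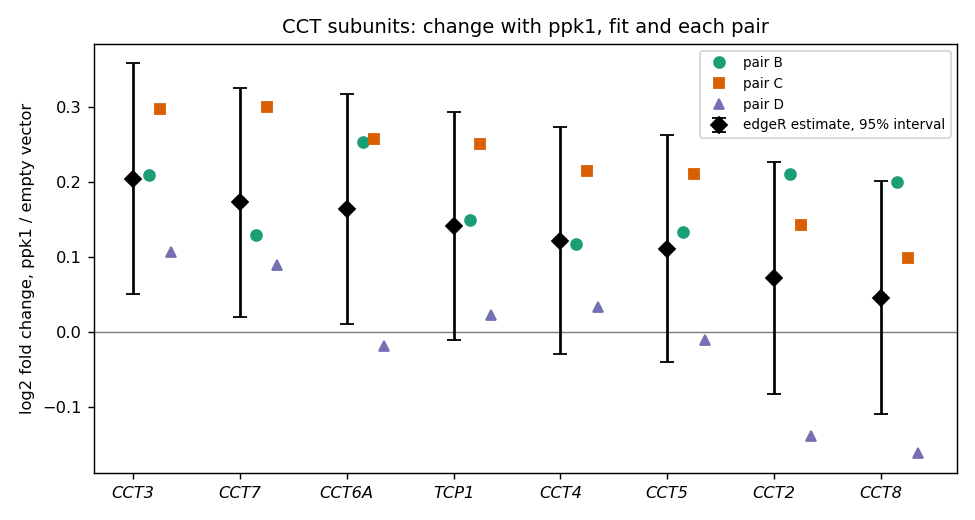
Change of each subunit with ppk1 as log2 fold change against the empty vector: black diamonds are the edgeR estimates with 95% intervals, and coloured symbols are the 3 pairs. All 8 estimates lie above 0, 3 intervals (CCT3, CCT7 and CCT6A) do not reach 0, and pair D is the lowest pair for every subunit.

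The subunit transcripts are abundant, and on TMM-scaled totals abundant transcripts as a whole were shifted in the same direction. Raw library totals were not used for this comparison. There were 286 genes with a mean level at or above that of the lowest subunit (417 CPM for CCT2), which is 1.46% of those tested, the 8 subunits included. Their median log2 fold change was 0.11, against 0.13 for the subunits and 0.01 for all genes tested. In this set 88.1% had a log2 fold change above 0, against 53.1% of all genes tested, and 29.4% had ppk1 libraries all above the empty vector libraries. A higher level in all 3 pairs was found for 44.8% of the set, against 4 of the 8 subunits. Of the 286, 31 (10.8%) were called, 31 of them higher and 0 lower. The medians of the set were 0.11, 0.17 and 0.03 in pairs B, C and D. The set was chosen after the values of the subunits were seen, and it was not tested against them.

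Added together, the 8 subunits amounted to 3941, 4099 and 4634 CPM in the empty vector libraries B, C and D, and to 4446, 4810 and 4632 CPM in the ppk1 libraries. The groups overlapped through empty vector D, and the mean difference over the pairs was 0.13 on the log2 scale (0.17, 0.23 and -0.001 in pairs B, C and D). With upper-quartile scaling the mean difference was 0.11. On raw library totals it was 0.07 (0.11, 0.12 and -0.03 in the pairs). The TMM factors were 1.00 to 1.04 with the empty vector, against 0.955 to 0.996 with ppk1. Of the raw counts, the subunits held 0.409%, 0.423% and 0.463% with the empty vector and 0.442%, 0.459% and 0.454% with ppk1. Without replicate D the mean difference on the TMM scale was 0.20, and without replicate C it was 0.09. In these bulk libraries a change in the number of cells of a kind and in the RNA per cell cannot be told apart.

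Within the sum, CCT3 took a larger share with ppk1 and CCT5 a slightly smaller one, while none of the other 6 shares had the same direction in all 3 pairs. The CCT3 share was 17.54%, 17.44% and 16.86% of the summed CPM in the empty vector libraries B, C and D, and 17.98%, 18.26% and 18.15% in the ppk1 libraries. These groups did not overlap, and the share was higher by 0.44, 0.82 and 1.30 percentage points in the 3 pairs. The CCT5 share was 11.14%, 11.05% and 10.996% with the empty vector and 10.83%, 10.90% and 10.92% with ppk1, lower by 0.31, 0.15 and 0.08 points. Over the 6 libraries CCT5 spanned the least of the 8 (0.311 points), while among the ppk1 libraries alone the share of CCT6A had the smaller SD (0.0287 against 0.0445 points). The CCT8 share was 11.04%, 11.29% and 13.04% with the empty vector and 11.24%, 10.30% and 11.66% with ppk1, and empty vector D stood apart from the other 5 libraries. The CCT2 share behaved alike, at 8.82%, 9.47% and 10.6% with the empty vector and 9.05%, 8.91% and 9.59% with ppk1. In the same library D the shares of TCP1, CCT3, CCT4 and CCT7 were the lowest of the 6 libraries. These shares are tied to each other, since they add up to the whole, and no test was made on them.

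**Figure D3:**
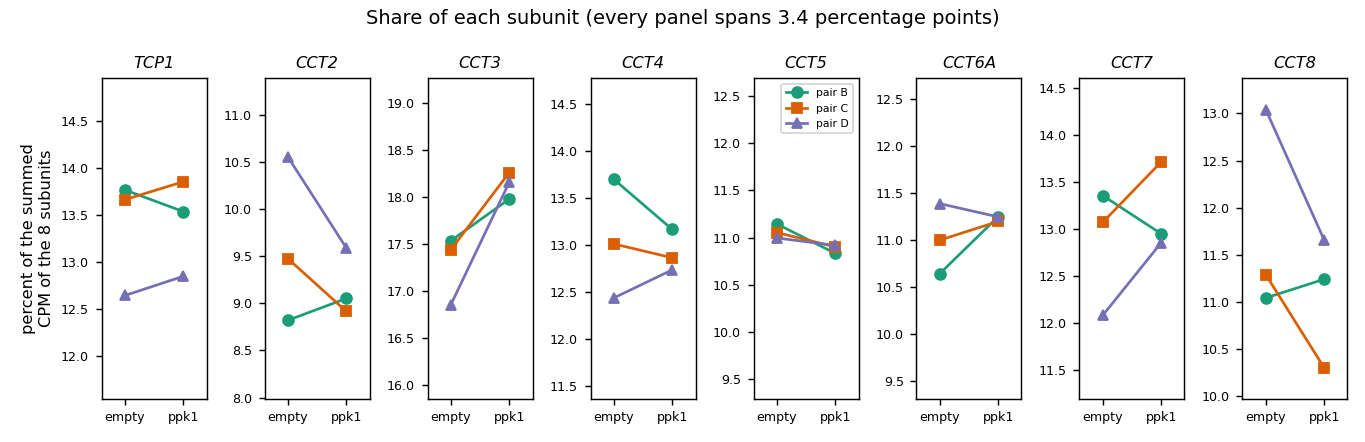
Share of each subunit in the summed CPM of the 8 (percent, axes not from 0, all of the same span), with lines joining the 2 libraries of a letter. The CCT3 share is higher with ppk1 in all 3 pairs, the CCT5 share spans the least, and the CCT2 and CCT8 shares are lower with ppk1 in pairs C and D but not in pair B.

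The spread between the empty vector libraries rested largely on library D. In the empty vector libraries the coefficient of variation was 3.20% for CCT7, 3.88% for TCP1 and 4.22% for CCT4, but 17.8% for CCT2 and 18.1% for CCT8. Without library D, over the remaining 2 libraries, it was 1.25% for CCT7, 2.24% for TCP1, 0.861% for CCT4, 7.82% for CCT2 and 4.33% for CCT8. In the ppk1 libraries it lay between 3.04% (CCT4) and 7.19% (CCT7) for all 8. The deviations of the subunits from their group means were positively correlated over the 6 libraries in all 28 pairs of subunits (median r 0.845). CCT3 and CCT5 were the closest pair (r 0.988), TCP1 and CCT7 had r 0.948, CCT2 and CCT8 had r 0.969, and CCT7 and CCT8 were the farthest apart (r 0.306). Each of the 8 lay above its group mean in empty vector D (by 0.05 to 0.29 on the log2 scale) and below it in empty vector B and C. The correlations share library depth and scaling and were not compared with those among other genes. They are given as a description of 6 libraries.

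Levels can be compared between subunits once divided by transcript length. Per kilobase of the principal transcript in GENCODE release 29, CCT3 was highest, at 339 ± 21.7 CPM per kilobase with the empty vector and 390 ± 18.4 with ppk1 (SD, n = 3 libraries per group). CCT7 followed with 282 ± 9.04 and 318 ± 22.9 CPM per kilobase. CCT5 was lowest, with 127 ± 10.1 and 137 ± 5.84, on a transcript of 3675 bases. In between came CCT8 (250 ± 45.2 with the empty vector), TCP1 (225 ± 8.73), CCT4 (218 ± 9.21), CCT2 (200 ± 35.7) and CCT6A (171 ± 20.4), all in CPM per kilobase, and the order was the same with ppk1. In the empty vector libraries neighbours from CCT7 down to CCT6A overlapped in their library values, while CCT3 lay above CCT7 and CCT5 below CCT6A without overlap. The highest subunit was 2.67-fold above the lowest with the empty vector. The order rests on the length used: over the length of all exons merged, CCT4 was highest (194 CPM per kilobase with the empty vector), CCT3 was next (181), CCT5 was again lowest (80.0), and the ratio was 2.43.

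CCT6B, the testis-enriched counterpart of CCT6A, went the other way at a far lower level. Its counts were 68, 72 and 71 in the empty vector libraries B, C and D and 54, 39 and 39 in the ppk1 libraries, or 1.29, 1.62 and 1.74 CPM against 0.81, 0.81 and 0.93 CPM. The groups did not overlap, and the log2 fold change was -0.85 (SE 0.20, adjusted p 0.00319 in edgeR). The fall was not called by DESeq2 (adjusted p 0.121) or without replicate C (edgeR adjusted p 0.0834). CCT6B overlaps LIG3, a DNA ligase gene, on the opposite strand, and LIG3 was at 71.2 and 76.6 CPM in the 2 groups. CCT8L2 had 0 counts in all 6 libraries.

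Copies of the subunit genes bear on how cleanly reads can be assigned. Between 0% (CCT4 and CCT7) and 5.35% (CCT6A) of the stretches of 50 bases in a subunit's transcripts also occur in transcripts of another gene. For TCP1, CCT5, CCT6A and CCT8 the gene that shared most was one of the subunit's own pseudogenes. The table holds 12 pseudogenes of the 8 subunits, looked up after the subunit values were seen, and 4 of them passed the filter on low counts. CCT6P3 fell from 8.18, 6.86 and 9.01 CPM in the empty vector libraries to 5.96, 5.55 and 5.50 CPM in the ppk1 libraries, with a log2 fold change of -0.49 (SE 0.11, adjusted p 0.00186 in edgeR). CCT4P2 rose from 12 to 24 counts to 38 to 49 counts per library, with a log2 fold change of 1.02 (SE 0.27, adjusted p 0.00861 in edgeR), and was not called without the replicate block (0.064), in DESeq2 (0.202) or without replicate C or D (0.121 and 0.0899). CCT6P1 (group means 21.9 and 20.1 CPM with the empty vector and ppk1) and CCT8P1 (0.85 and 0.80 CPM) were not called. CCT6P1 and CCT6P3 share sequence with each other (40.0% and 17.8% of their own stretches), so the split of reads between them is uncertain.

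The genes that work with CCT were taken from lists of its partners, relatives, substrates and promoter factors, 60 genes in all. Of the 58 tested, 8 (13.8%) were called in edgeR, where 9.08% of all genes tested were, and 6 (10.3%) in DESeq2, where 4.40% were. These lists were chosen with earlier results known, and no test of the shares was made. Among the 9 genes of prefoldin, the complex that carries unfolded actin and tubulin to CCT, and of the related URI complex, 1 rose and 0 fell, with a median log2 fold change of 0.10. PFDN6 rose from 44.4, 46.2 and 51.1 CPM to 52.2, 59.9 and 60.4 CPM, and its groups did not overlap. Its log2 fold change was 0.28 (SE 0.08, adjusted p 0.0103 in edgeR, and 0.0946 without the replicate block). The other prefoldin subunits had log2 fold changes of 0.17 (PFDN5), 0.11 (VBP1), 0.04 (PFDN1), 0.03 (PFDN2) and 0.003 (PFDN4), with edgeR adjusted p between 0.157 and 0.988.

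Of the 3 phosducin-like genes tested, 1 rose and 0 fell, with a median of -0.03. PDCL3, which encodes a phosducin-like protein that binds CCT, rose from 19.5, 21.0 and 22.9 CPM to 22.3, 27.3 and 26.6 CPM, with overlapping groups. Its log2 fold change was 0.26 (SE 0.08, adjusted p 0.0294 in edgeR), and it was lost without the replicate block (0.167), in DESeq2 (0.119), with upper-quartile scaling (0.0633) and with no filter (0.051). It shares 19.1% of its stretches of 50 bases with other genes, so its value is uncertain. Among 6 tested chaperonin relatives, 0 rose and CCT6B fell, with a median of -0.12. HSPD1 and HSPE1, the chaperonin of mitochondria and its lid, had log2 fold changes of 0.15 and 0.23 (edgeR adjusted p 0.248 and 0.0527), while BBS10 and BBS12, CCT-like proteins of the BBSome assembly pathway, had -0.19 and -0.29 (0.115 and 0.0595).

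Actin and tubulin genes held the largest called rises of the pathway. Of 14 actin and tubulin genes, 4 rose and 0 fell, with a median log2 fold change of 0.19. Of the 14, 13 were above 0, against 53.1% of all genes tested and 88.1% of the 286 abundant genes. ACTB, cytoplasmic beta-actin, rose from 826, 868 and 762 CPM to 1010, 1330 and 1021 CPM. The groups were well apart, and the log2 fold change was 0.44 (SE 0.08, adjusted p 9.02e-05 in edgeR). ACTG1, gamma-actin, rose from 2080, 1957 and 1794 CPM to 2451, 2807 and 2391 CPM, with a log2 fold change of 0.39 (SE 0.08, adjusted p 0.000883 in edgeR). Both actins were higher in all 3 pairs, pair D included (0.42 and 0.41), where 4 of the 8 CCT subunits were below 0. TUBB6 and TUBB4B, beta-tubulins, rose by log2 fold changes of 0.33 and 0.29 (edgeR adjusted p 0.00296 and 0.00706), and TUBB4B was not called without the replicate block (0.077). The abundant TUBA1B and TUBB did not pass, at 0.18 and 0.17 (edgeR adjusted p 0.144 and 0.183), although their ppk1 libraries all lay above the empty vector libraries. TUBA1B shares 25.6% of its stretches with other genes, and TUBB 14.2%. Without replicate C 0 of the 60 genes were called, and the adjusted p of ACTB was then 0.0511.

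The tubulin cofactors, which join the tubulin subunits after CCT has released them, had 0 of 6 genes called in edgeR and in DESeq2, 1 at an unadjusted p below 0.05 in edgeR (TBCB, log2 fold change 0.20), and a median of 0.12. The other reported substrates, among them cell cycle and signalling proteins with WD40 propellers, had 0 of 16 called in edgeR and in DESeq2. Their median was 0.08, and 3 had an unadjusted p below 0.05 in edgeR (among them GNB2 and RPTOR, at 0.17 and 0.22). Of the 16, 15 were above 0, where 53.1% of all genes tested and 88.1% of the 286 abundant genes were.

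Of the 4 factors reported to act on CCT promoters, 1 was called and it was lower. HSF2, a heat shock factor, fell from 79.3, 80.6 and 105 CPM to 73.6, 63.1 and 73.7 CPM, with empty vector D the highest. Its log2 fold change was -0.32 (SE 0.08, adjusted p 0.00433 in edgeR, and 0.129 without the replicate block). HSF1, the main heat shock factor, was at 98.0, 91.2 and 77.9 CPM and at 93.3, 99.6 and 92.7 CPM, a log2 fold change of 0.10 (edgeR adjusted p 0.447). ZNF143 had a log2 fold change of -0.12 (edgeR adjusted p 0.355), and ZNF76 had -0.17 (edgeR adjusted p 0.152). The median of the 4 was -0.15, with 1 of them above 0.

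**Figure D4:**
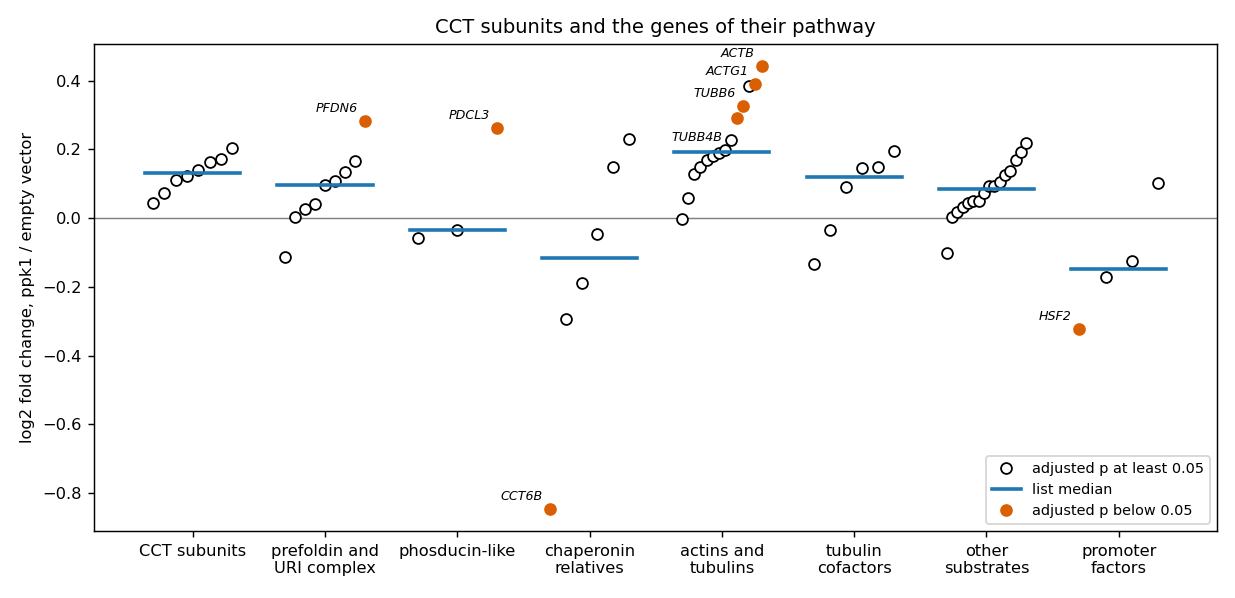
Log2 fold change with ppk1 of the CCT subunits and of the genes on each pathway list (1 point per tested gene, sorted within a list), with filled points for an edgeR adjusted p below 0.05 and a bar at each list's median. No CCT subunit is filled, the actins and tubulins hold 4 filled points above 0, and CCT6B and HSF2 are the filled points below 0.

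The genes whose levels followed the subunits most closely were sought among 12237 other genes that averaged 200 counts or more per library, by Pearson's r between log2 CPM and the mean CCT profile over the 6 libraries. The 6 highest were CACYBP (r 0.9986), HSPD1 (0.9967), XRCC6 (0.9955), FABP5 (0.9954), PSIP1 (0.995) and H3F3A (0.9946). CACYBP, the closest, had 209, 221 and 253 CPM with the empty vector and 239, 258 and 251 CPM with ppk1. HSPD1 had 1142, 1180 and 1352 CPM with the empty vector and 1303, 1400 and 1357 CPM with ppk1. Both show the same layout as the summed subunits, low in empty vector B and C and level in pair D. None of the 6 was called in edgeR or DESeq2 (edgeR adjusted p 0.0689 to 0.342, with FABP5 and H3F3A at an unadjusted p below 0.05). The highest of many correlations over 6 libraries is high by selection, and the libraries share depth and scaling, so no p is given. All of them but PSIP1 share between 7.30% and 18.4% of their stretches of 50 bases with other genes.

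**Figure D5:**
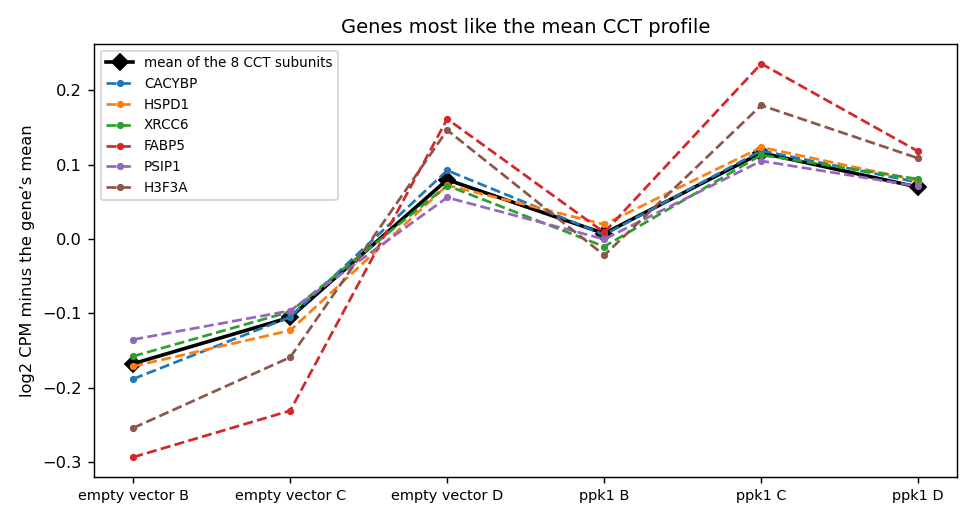
Log2 CPM minus each gene's own mean in the 6 libraries, for the mean of the 8 CCT subunits (black diamonds) and the 6 genes with the highest correlation with it (lines only join the values of a gene). The CCT mean lies at -0.17 and -0.11 in empty vector B and C, at 0.08 in empty vector D, and at 0.01, 0.12 and 0.07 in ppk1 B, C and D.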

How the data were processed

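The authors deposited 1 table of raw counts per Ensembl gene (whole numbers, 58051 genes, 6 libraries), with 0 columns left unused and 0 rows that name no gene. The submitters' processing notes name bcl2fastq 2.20, Trimmomatic, STAR, HTSeq, edgeR, DESeq, Cufflinks and Cuffdiff, with no role or order. The genome build, the annotation and the strand setting are not given in the sources used here. Per the labels' protocols, poly(A) RNA was selected and a directional kit was used.

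From these counts, genes were kept by filterByExpr (minimum count 10; 19574 genes, all 8 subunits among them) and tested with edgeR 4.0.16 in R 4.3.3 (glmQLFit and glmQLFTest, TMM scaling, Benjamini-Hochberg over all genes tested, threshold 0.05). The letter was a block, since the series' design text pairs the libraries. Libraries of the same letter deviated from their group means with correlations of 0.109 (B), 0.135 (C) and 0.0476 (D) over all genes tested, against -0.12 to -0.00506 between different letters. Over the 12245 genes averaging 200 counts or more, all 8 subunits among them, they were 0.239, 0.399 and 0.247, against -0.307 to -0.0625. Deviations from a group mean cancel within that group. Values between different letters are therefore pushed down when those of the same letter are positive. SE is the absolute log2 fold change over the square root of F. CPM uses TMM-scaled totals, and log2 CPM a prior count of 2. Gene models came from GENCODE release 29, which held 98.86% of the identifiers. The test was run on simulated data in which every change put in was larger than that of any subunit. The detection of changes as small as those of the subunits was therefore not checked. Named genes were all subunits, called genes of each list (at most 6), HSF1, HSF2, ZNF143, ACTB, TUBA1B, TUBB, prefoldin, and the 6 closest profiles. One gene of the substrate list is not reported here by name. The gene family and the lists were chosen with earlier results of these data known; within the family, membership rests on the symbols alone. Alternatives were DESeq2 1.42.0, no block, other scalings and filters, a robust fit, omission of mitochondrially encoded genes, GC and length offsets, and each pair left out.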

Additional observations from a re-analysis of the deposited data

How the results depend on the processing

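The 8 subunits kept a positive log2 fold change in 95 of 96 values under the 12 alternatives, CCT8 being the exception, from -0.033 without replicate B to 0.128 without replicate D, and in 6 values a subunit passed that had not. The number of subunits called was 0 in edgeR with the block and 0 without the replicate block (2 at an unadjusted p below 0.05, with no share of all genes given). It was 1 with no filter (CCT3), 3 with GC and length offsets (TCP1, CCT3 and CCT6A) and 0 to 2 with one pair left out (2 without D, CCT3 and CCT6A). Over all genes, the main fit called 1777 of 19574 and the fit with the offsets 2984 of the same 19574. With no filter 1731 were called, but every gene with any count was then tested. The share of all genes called was thus larger with the offsets and smaller with no filter than in the main fit. Without D 1803 were called, and the number tested there is not given here. All calls of a subunit were higher with ppk1. The cause was not tested.

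Over all genes, 1777 were called (791 higher). The count was 470 without the replicate block (89 higher), 755 in DESeq2 (324 higher), 2984 with GC and length offsets (1578 higher) and 406 to 2435 with one pair left out (82 to 1263 higher). Upper-quartile scaling called 422 higher. The pathway lists had 8 calls, 4 without the replicate block, 18 with the offsets and 0 to 13 when a pair was left out.

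Prefoldin subunits near 0 changed sign: PFDN1 ran from -0.039 without replicate C to 0.128 without D, and PFDN2 was -0.014 with the offsets. PFDN4 was -0.017 without the replicate block, -0.0040 with RLE, -0.019 with upper-quartile scaling, -0.0034 at 50 counts or more, -0.00096 in DESeq2, and from -0.090 without replicate B to 0.109 without D when a pair was left out. The summed level differed by 0.07 to 0.20 on the log2 scale over its settings.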
